A study of Homo sapiens with 14 samples.

Results

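Chemokine genes were examined in 2 human lung adenocarcinoma cell lines treated with AMG900, an inhibitor of the Aurora kinases. The 9 genes were CXCL8 (older name IL8), CXCL1, CXCL2, CXCL3, CXCL5, CCL2, CCL5, CCL20 and CXCL16, taken by their symbols from the 26732 gene names that the count tables of both lines share. They were selected on earlier results of the same AMG900 comparisons, with CCL5 singled out for its rise in A549, so their changes with AMG900 and the differences of those changes between lines are given below as a description, with no p-value. A549 was grown in DMEM and H1792 in RPMI 1640, both with fetal bovine serum. Each line received DMSO, the solvent control, or 0.1 µM AMG900 for 48 h, in 4 libraries per treatment for A549 and 3 for H1792. The comparison addresses how the mRNA of lung adenocarcinoma cells changes when Aurora kinases are inhibited. The labels do not say whether the libraries of a group came from cultures grown on separate days, so the spread between them may be technical. Each line is a single established line in culture, without the immune cells that chemokines act on.

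Chemokines are small secreted proteins that bind receptors coupled to G proteins and direct the migration of leukocytes. CXCL8, CXCL1, CXCL2, CXCL3 and CXCL5 belong to the CXC ligands with an ELR motif, which act on the receptors CXCR1 and CXCR2 and draw neutrophils. CCL2 draws monocytes through CCR2, CCL5 draws T cells and monocytes, CCL20 is the ligand of CCR6, and CXCL16 is made as a membrane protein that can be shed and binds CXCR6. In epithelial cells many of these genes are known targets of NF-kB, CCL5 is also induced with the interferon response, and the short-lived mRNAs of several ELR chemokines carry AU-rich elements in their 3′ UTRs.

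Sequences upstream of the genes are shown because those of CXCL1, CXCL2 and CXCL3 in the chromosome 4 cluster are largely alike. RefSeq promoters (GRCh38.p14) were matched for 6 of the 9 members, CCL5, CCL2 and CXCL16 being the others. Each line gives the 120 bases before the transcription start, 5′ to 3′ on the strand of the gene, with a match to the NF-kB consensus in capitals.
CXCL1 (chr4:73869273-73869392, plus strand): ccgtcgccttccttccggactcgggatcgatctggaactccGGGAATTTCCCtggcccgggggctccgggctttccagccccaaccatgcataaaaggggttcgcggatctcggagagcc
CXCL3 (chr4:74038690-74038809, minus strand): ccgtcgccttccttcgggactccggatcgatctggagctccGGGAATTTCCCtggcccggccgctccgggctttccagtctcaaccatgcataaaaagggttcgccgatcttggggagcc
CXCL2 (chr4:74099196-74099315, minus strand): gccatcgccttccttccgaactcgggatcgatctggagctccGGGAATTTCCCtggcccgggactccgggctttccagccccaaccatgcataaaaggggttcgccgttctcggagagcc
CXCL5 (chr4:73998678-73998797, minus strand): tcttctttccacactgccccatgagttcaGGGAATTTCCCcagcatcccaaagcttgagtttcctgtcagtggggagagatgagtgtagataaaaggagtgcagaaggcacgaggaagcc
CCL20 (chr2:227813722-227813841, plus strand): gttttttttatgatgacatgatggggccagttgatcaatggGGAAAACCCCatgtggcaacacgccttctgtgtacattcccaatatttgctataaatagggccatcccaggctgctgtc
CXCL8 (chr4:73740449-73740568, plus strand): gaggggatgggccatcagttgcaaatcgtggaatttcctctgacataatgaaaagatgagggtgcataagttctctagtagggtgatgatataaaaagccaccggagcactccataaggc

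In a global alignment with gaps, the windows of CXCL1 and CXCL2 were identical at 113 of 121 columns (93.4%), those of CXCL1 and CXCL3 at 109 of 120 (90.8%) and those of CXCL2 and CXCL3 at 107 of 121 (88.4%). The window of CXCL5 was identical to those of CXCL1, CXCL2 and CXCL3 at 49.6%, 47.6% and 55.6% of columns. CXCL8 was not aligned. In CXCL1, CXCL2, CXCL3 and CXCL5 the same 11-base match, GGGAATTTCCC, is read on both strands as overlapping matches. It starts 79 bases before the transcription start in CXCL1 and CXCL3, 78 in CXCL2 and 91 in CXCL5. CCL20 had a match on the minus strand, GGAAAACCCC, starting 79 bases before the start. The 250 bases before the start of CXCL8 held no match to the letters searched, which says nothing about the factor. Over all 35116 promoters of the RefSeq table, 5.21% held the NF-kB consensus in the same length. The AP-1 letters TGANTCA were found in CXCL8 (6.57% of all promoters) and the ISRE core GAAANNGAA in CXCL2 and CXCL3 (6.88%). The C/EBP letters TTNNGNAA occurred in CXCL2 (33.2%), and TATAAA in CCL20 and CXCL8 (10.72%). All motifs were searched on both strands, and a match is a description of the letters.

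The gene bodies lie on 3 chromosomes (GENCODE annotation of GRCh37). CXCL8 (chr4:74606236-74609433), CXCL1 (chr4:74735110-74737025), CXCL5 (chr4:74861359-74864394), CXCL3 (chr4:74902306-74904524) and CXCL2 (chr4:74962757-74964913) stand in the chromosome 4 cluster. CCL2 (chr17:32582293-32584227), CCL5 (chr17:34198495-34207797) and CXCL16 (chr17:4636828-4643223) are on chromosome 17 and CCL20 (chr2:228670455-228682280) on chromosome 2. Of all stretches of 50 bases in the transcripts, 5.33% of CXCL1, 10.13% of CXCL2 and 5.26% of CXCL3 also occur in another of these 3 genes. Of those in CCL5, 17.04% are shared, with 366 other genes in all. Reads from such stretches could be split or lost in counting. An lncRNA on the opposite strand spans all 9303 bases of the CCL5 gene body, introns included. No strand setting is stated and overlap of exons was not examined, so reads of this lncRNA may have been counted as CCL5. The same holds for 745 bases of CXCL5 under another lncRNA, and for the 76 and 96 bases that CXCL16 shares with MED11 and ZMYND15.

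Library totals ran from 4254644 to 18962883 counts in A549, with DMSO replicate 1 the smallest of all 14 libraries, and from 42810734 to 79984064 in H1792. Levels are given as CPM, the counts of a gene relative to the scaled library total, after TMM scaling over all 14 libraries, and fold changes as edgeR log2 estimates with their SE from a fit of each line, so ratios of CPM differ slightly from the fitted changes. The 5 epithelial markers (KRT8, KRT18, KRT19, EPCAM and CDH1) summed to between 4230 and 7060 CPM in A549 and between 674 and 852 CPM in H1792. KRT8 and KRT18 made up most of the sum in both lines. EPCAM itself was barely counted in A549. CDH1 was low in H1792, with a mean of 0.697 CPM with DMSO and 0.927 CPM with AMG900, beside 21.9 CPM in A549 with DMSO. The 7 leukocyte markers summed to between 4.30 and 8.06 CPM in A549 DMSO libraries and between 15.2 and 16.6 CPM with AMG900, with CD14 and ITGAM making up most of both. CD3D and CD3E, which define T cells, had no count in any A549 library, and the part of leukocyte marker genes in the chemokine changes was not tested. In H1792 the same sum was 1.66 to 2.03 CPM with DMSO and 2.72 to 3.09 CPM with AMG900. The 3 endothelial markers (PECAM1, CDH5 and VWF) summed to at most 5.59 CPM in A549. In H1792 the sum was 4.01 to 16.5 CPM with DMSO, the highest resting on VWF in DMSO replicate 2 (10.8 CPM), and 8.29 to 9.40 CPM with AMG900. PECAM1 (log2 0.76, SE 0.15, edgeR adjusted p = 0.0018) and CDH5 (2.29, SE 0.48, edgeR adjusted p = 0.0026) rose there with AMG900, CDH5 from at most 5 counts per library to at most 27, and their part in the chemokine changes was not tested.

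With AMG900, 8 of the 9 chemokines were higher in A549 at an FDR of 0.01, where 17.2% of the 13174 genes tested were called higher. None was lower, against 17.8% of all genes. The median log2 change of the 9 was 1.34, beside -0.01 for all genes tested. In H1792, 3 of the 9 (CCL5, CCL2 and CXCL3) were called higher, where 16.2% of the 15017 genes tested were higher. CXCL5 was called lower, against 18.8% of all genes, and 5 were not called. Their median log2 change was 0.06, beside 0.01 for all genes. These counts describe genes picked with the same contrasts known, and nothing about chemokines as a class is read from them. In such bulk libraries, fewer cells that express a gene and less of its RNA per cell cannot be told apart. The 9 genes together rose from 589 ± 29.4 CPM to 1700 ± 26.1 CPM in A549 (SD, n = 4), and in H1792 their sums were 1270 ± 98.8 CPM under DMSO and 1190 ± 2.29 CPM under AMG900 (SD, n = 3).

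**Figure D1:**
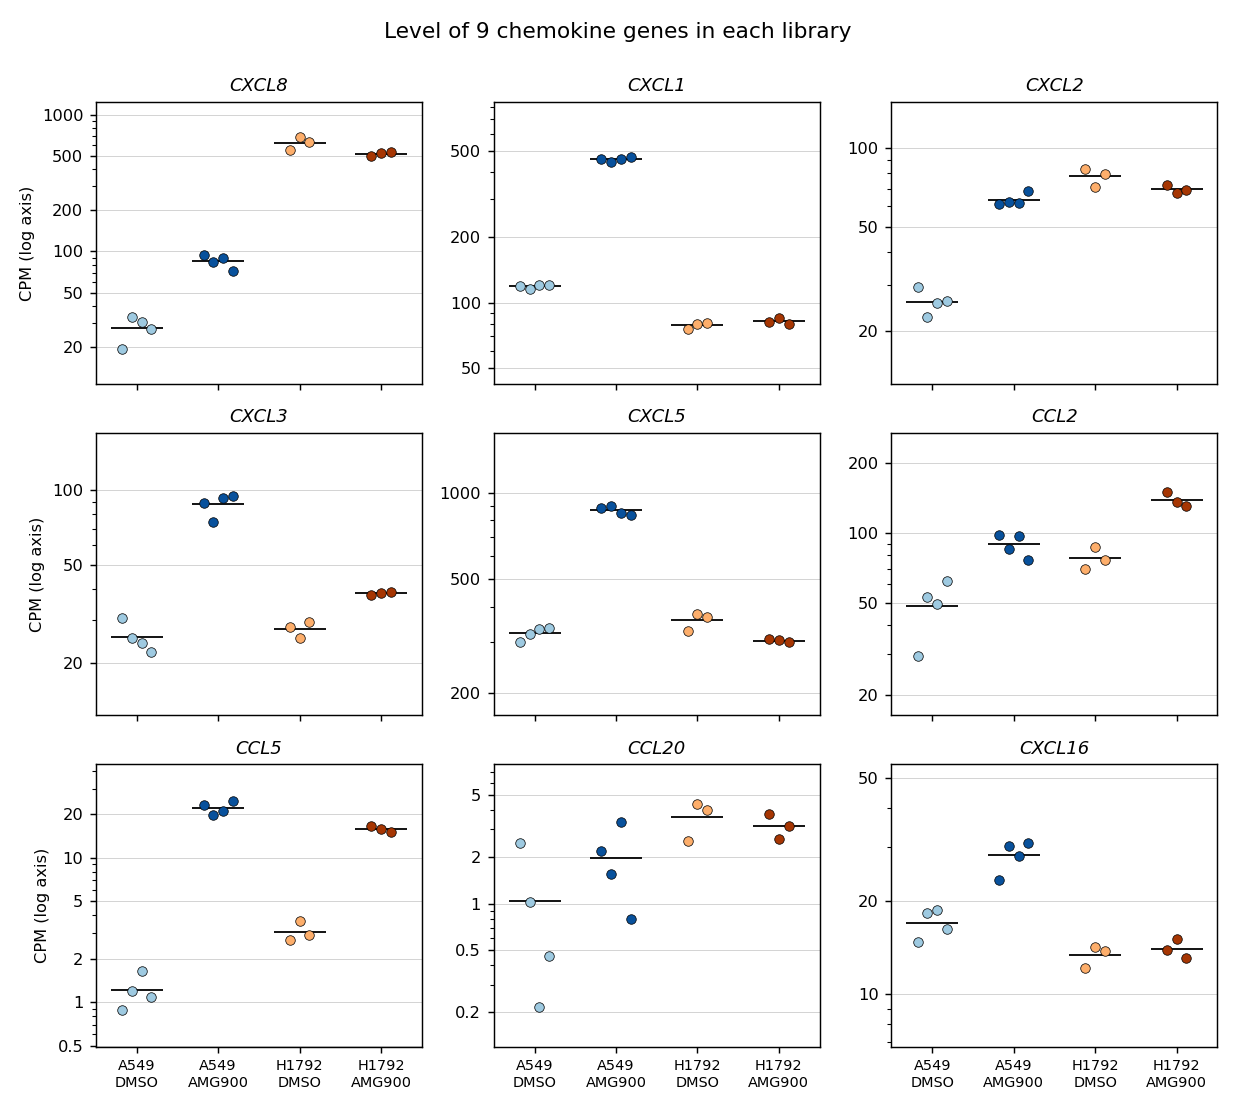
CPM of each chemokine gene (log axis) in every library, grouped by line and treatment; points are libraries and bars are group means. In A549 the AMG900 libraries stand above all DMSO libraries for every gene but CCL20, whose groups overlap, and in H1792 CCL5, CCL2 and CXCL3 stand higher with AMG900.

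Among the ELR ligands, CXCL8, the archetypal neutrophil attractant, was at 19.3, 33.3, 30.3 and 27.1 CPM in the A549 DMSO libraries and at 94.3, 83.2, 89.3 and 71.8 CPM in the A549 AMG900 libraries. In H1792 it was at 553, 689 and 634 CPM with DMSO and at 500, 522 and 537 CPM with AMG900. Every A549 AMG900 library was above every A549 DMSO library, while in H1792 every AMG900 library was below every DMSO library by a small margin. The log2 change was 1.51 (SE 0.14) in A549, and in H1792 it was -0.27 (SE 0.07), which was not called. The H1792 direction changed with the fit: with a correction for the GC content of transcripts the log2 value was 0.59 (SE 0.04), called higher. With DESeq2 in place of edgeR it was -0.28 and was called lower. In A549 the GC-corrected value was 2.03.

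CXCL1, a ligand of CXCR2, was at 119, 115, 120 and 121 CPM in the A549 DMSO libraries and at 460, 444, 457 and 467 CPM with AMG900. The A549 groups were far apart, with a log2 change of 1.86 (SE 0.06). In H1792 it was at 75.8, 79.6 and 80.5 CPM with DMSO and at 81.8, 84.9 and 80.0 CPM with AMG900. The H1792 groups overlapped, and the log2 value of 0.06 (SE 0.06) was not called. 

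CXCL2 and CXCL3 are close paralogs of CXCL1. CXCL2 was at 29.5, 22.5, 25.5 and 25.9 CPM in A549 with DMSO and at 61.3, 62.4, 61.9 and 68.4 CPM with AMG900, a log2 change of 1.23 (SE 0.10). The H1792 libraries had 83.5, 70.8 and 79.9 CPM with DMSO and at 72.5, 67.3 and 69.2 CPM with AMG900. The A549 groups were apart and the H1792 groups overlapped, with an uncalled log2 value of -0.17 (SE 0.07). CXCL3 was at 30.4, 25.4, 24.1 and 22.2 CPM in A549 with DMSO and at 88.6, 74.9, 92.9 and 94.7 CPM with AMG900, a log2 change of 1.73 (SE 0.11). In H1792 it went from 28.2, 25.3 and 29.3 CPM to 37.8, 38.4 and 38.9 CPM. CXCL3 was thus the ELR gene whose CPM groups stood apart upward in both lines, although the H1792 log2 change was 0.47 (SE 0.07). With the GC correction the H1792 value of CXCL3 was 0.58 (SE 0.08), and CXCL8 (0.59) and CXCL5 (0.30) were called higher too. CXCL1 (0.15) and CXCL2 (-0.05) were not called in that fit.

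CXCL5, which like CXCL8 and the CXCL1 group draws neutrophils through CXCR2, was at 301, 322, 334 and 338 CPM in A549 with DMSO and at 884, 897, 848 and 838 CPM with AMG900, a log2 change of 1.34 (SE 0.06). The H1792 values were 330, 378 and 369 CPM with DMSO and at 307, 306 and 300 CPM with AMG900. All H1792 AMG900 libraries were below the DMSO libraries, and the log2 value of -0.24 (SE 0.06) was called lower. This call was lost without AMG900 replicate 1 (-0.25), 2 (-0.25) or 3 (-0.23) or DMSO replicate 3 (-0.23), and with the GC correction the value turned to 0.30 (SE 0.04) and was called higher.

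The 5 ELR genes summed to 521 ± 16.2 CPM in the A549 DMSO libraries and to 1560 ± 21.2 CPM after AMG900 (SD, n = 4). In H1792 they summed to 1170 ± 88.5 and 1010 ± 13.6 CPM (SD, n = 3). The H1792 sums of 999 to 1030 CPM with AMG900 lay below the 1070 to 1240 CPM with DMSO, and CXCL8 and CXCL5, whose H1792 direction turned with the GC correction, are the largest terms of the sum.

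Among the CC ligands, CCL5 was at 0.887, 1.20, 1.66 and 1.09 CPM in the A549 DMSO libraries, which rested on 4, 14, 23 and 19 counts. With AMG900 it was at 23.3, 19.7, 21.0 and 24.6 CPM, from 247 to 388 counts. The A549 groups were far apart. The log2 change of 4.05 (SE 0.19) was a 16.5-fold difference, the 10th highest fitted log2 change of the 13174 genes tested. In H1792 it was at 2.68, 3.65 and 2.90 CPM with DMSO and at 16.5, 15.8 and 15.1 CPM with AMG900. The log2 change there was 2.37 (SE 0.12), a 5.15-fold difference that ranked 69th of 15017 genes. With the GC correction the log2 values were 3.88 in A549 and 2.18 in H1792.

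CCL2 was at 29.3, 53.1, 49.4 and 62.0 CPM in A549 with DMSO and at 98.3, 85.3, 97.4 and 76.2 CPM with AMG900. In H1792 it was at 70.2, 86.8 and 76.6 CPM with DMSO and at 150, 136 and 131 CPM with AMG900. The groups were apart in both lines, and CCL2 was the gene whose fitted change was alike in size in them, with log2 changes of 0.77 (SE 0.16) in A549 and 0.83 (SE 0.08) in H1792.

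CCL20 was low in every group. It had 11, 12, 3 and 8 counts in the A549 DMSO libraries (2.44, 1.03, 0.216 and 0.461 CPM) and 23, 22, 62 and 12 counts with AMG900 (2.17, 1.56, 3.36 and 0.797 CPM). The A549 groups overlapped, and the smallest library, DMSO replicate 1, stood above all but 1 of the AMG900 libraries in CPM. The log2 value of 1.22 (SE 0.60) was not called, but without DMSO replicate 1 it was 1.77 and was called. In H1792 CCL20 was at 2.52, 4.36 and 3.99 CPM with DMSO and at 3.77, 2.60 and 3.15 CPM with AMG900, a log2 value of -0.18 (SE 0.22) that was not called and was 0.48 with the GC correction.

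CXCL16, the membrane-bound member, was at 14.8, 18.4, 18.7 and 16.3 CPM in A549 with DMSO and at 23.5, 30.2, 28.1 and 30.8 CPM with AMG900. The groups were apart, with a log2 change of 0.63 (SE 0.12), the smallest of the 8 called. With the GC correction it was 0.33 and was not called. H1792 libraries were at 12.2, 14.2 and 13.8 CPM with DMSO and at 13.9, 15.1 and 13.1 CPM with AMG900. These groups overlapped, and the log2 value of 0.06 (SE 0.09) was not called and was -0.21 with the GC correction.

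**Figure D2:**
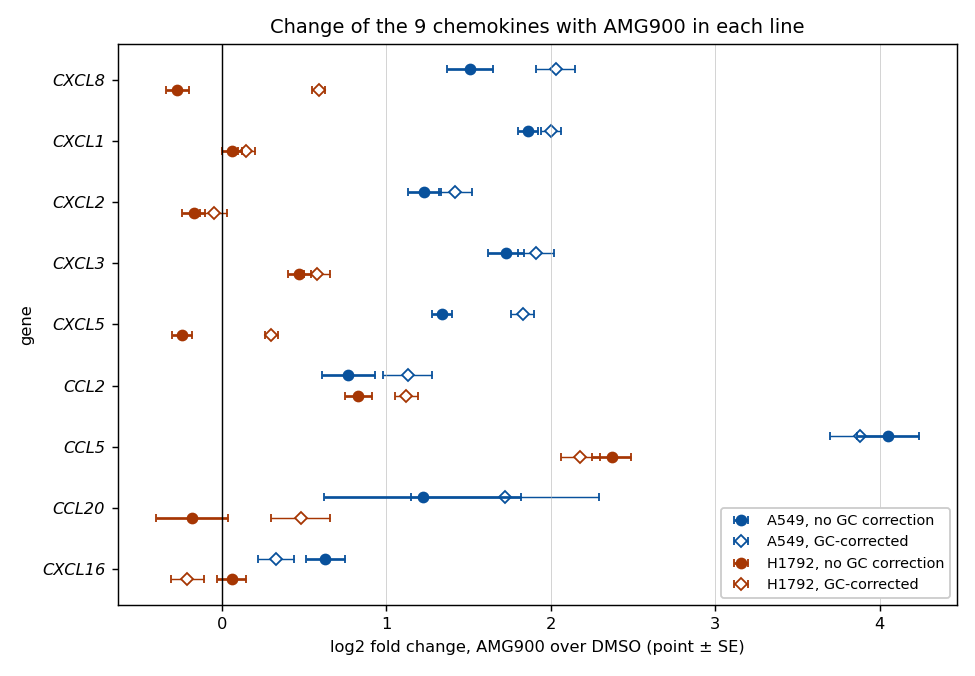
Log2 fold change of AMG900 over DMSO for each chemokine gene (point ± SE) in A549 (blue) and H1792 (red), as fitted (filled) and after correction for the GC content of transcripts (open). All A549 values lie above 0 in both fits, while in H1792 CXCL8 moves from -0.27 to 0.59 and CXCL5 from -0.24 to 0.30.

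The difference between the lines was fitted as an interaction over all 14 libraries, which share no control libraries between lines. Of the 9 chemokines, 7 had a called difference, where 14.5% of the 14769 genes tested did, and for each of the 7 the log2 change was lower in H1792 than in A549. The log2 change in H1792 minus that in A549 was -1.88 (SE 0.08) for CXCL1, -1.85 (SE 0.16) for CXCL8 and -1.66 (SE 0.09) for CXCL5. It was -1.48 (SE 0.12) for CXCL2 and -1.34 (SE 0.14) for CXCL3, so the 5 ELR genes lay between -1.88 and -1.34. CCL5, which rose in both lines, had a difference of -1.76 (SE 0.24). CXCL16 had the smallest called difference, -0.64 (SE 0.16), and its call was lost on leaving out any of 9 of the 14 libraries: A549 AMG900 replicates 2 to 4, A549 DMSO replicate 4, all 3 H1792 AMG900 replicates and H1792 DMSO replicates 2 and 3. Over all left-out libraries the value ranged from -0.72 to -0.60, and the call was also lost with DESeq2 size factors (-0.57), scaling by total counts (-0.56) or no filter on low counts (-0.63). CCL2 (-0.0049, SE 0.21) and CCL20 (-1.56, SE 0.65) had no called difference, which does not show that CCL2 acted alike. The median difference over all genes was -0.10. The GC correction kept each of the 7 differences negative and called, between -1.94 and -0.59.

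The DMSO libraries gave the resting level of each gene. They are also the controls of the AMG900 comparisons with which the genes were selected, so the differences between the resting lines are likewise a description, with no p-value. CXCL8 was 22.1-fold higher in H1792 (626 ± 68.4 CPM, SD, n = 3) than in A549 (27.5 ± 6.04 CPM, SD, n = 4), a log2 difference of 4.47 (SE 0.13). CCL20 was 4.69-fold higher in H1792 and CXCL2 3.06-fold higher. CCL5 and CCL2 were also higher in H1792, by 2.42-fold and 1.56-fold. The CCL2 call was lost in a fit of the DMSO libraries only (0.60 on the log2 scale). In the opposite direction, CXCL1 was 1.51-fold lower in H1792, at 78.6 ± 2.49 CPM (SD, n = 3) against 119 ± 2.67 CPM (SD, n = 4). CXCL16 was 1.29-fold lower, a call lost on leaving out any of 12 of the 14 libraries, all but A549 AMG900 replicate 1 and A549 DMSO replicate 1. Its log2 value of -0.37 ranged from -0.41 to -0.24 over the left-out libraries, the last without H1792 DMSO replicate 1.

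CXCL5 and CXCL3 were not called different between the resting lines, with log2 differences of 0.15 (SE 0.06) and 0.14 (SE 0.10). CXCL5 was called without H1792 DMSO replicate 1 (0.27). In all, 5 chemokines were called higher in H1792, where 34.2% of the 14769 genes tested were, and 2 lower, against 31.9%. Line, culture medium, count table and depth cannot be told apart in this comparison.

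Levels were compared between genes as CPM per kilobase of the canonical transcript. In A549 with DMSO the order was CXCL5 (133 ± 6.72), CXCL1 (101 ± 2.27), CCL2 (65.4 ± 18.7), CXCL3 (23.7 ± 3.26), CXCL2 (23.2 ± 2.58), CXCL8 (16.8 ± 3.68), CXCL16 (7.35 ± 0.790), CCL20 (1.24 ± 1.19) and CCL5 (0.932 ± 0.251) CPM per kb (SD, n = 4). CXCL3 and CXCL2, and CCL20 and CCL5, did not differ beyond the sum of their SDs. With AMG900 the A549 order opened with CXCL1 (389 ± 8.15) and CXCL5 (356 ± 11.6), and CCL5 (17.0 ± 1.71) passed CXCL16 (12.1 ± 1.41) and CCL20 (2.36 ± 1.30) CPM per kb. CXCL2 (57.0 ± 2.94) and CXCL8 (51.6 ± 5.89) CPM per kb did not differ beyond that sum.

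In H1792 with DMSO the order was CXCL8 (381 ± 41.7), CXCL5 (147 ± 10.5), CCL2 (105 ± 11.3), CXCL2 (70.0 ± 5.86), CXCL1 (67.0 ± 2.12), CXCL3 (25.7 ± 1.97), CXCL16 (5.77 ± 0.455), CCL20 (4.35 ± 1.17) and CCL5 (2.37 ± 0.392) CPM per kb (SD, n = 3). CXCL2 and CXCL1, and CXCL16 and CCL20, did not differ beyond the sum of their SDs. CXCL8 held 47.0% ± 1.71 of the summed chemokine level per kb in H1792 with DMSO and 38.6% ± 1.70 with AMG900 (SD, n = 3). In A549 it held 4.47% ± 0.848 and 4.74% ± 0.466 (SD, n = 4). CCL2 went from 13.0% ± 0.555 to 22.9% ± 1.49 of the H1792 sum and from 17.4% ± 4.14 to 11.1% ± 1.12 of the A549 sum. CCL5 remained a small share after AMG900, 1.57% ± 0.157 in A549 and 1.49% ± 0.0544 in H1792.

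**Figure D3:**
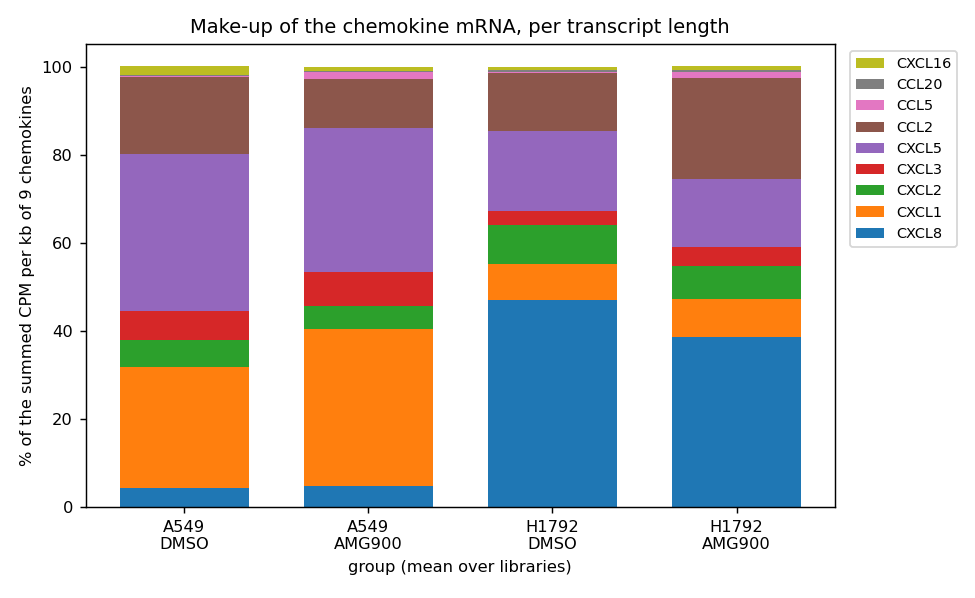
Share of each gene in the summed CPM per kb of the 9 chemokines (mean over libraries of each group; bars start at 0 and stack to 100%). CXCL5 and CXCL1 make up most of the A549 bars and CXCL8 is the largest part of the H1792 bars, at 47.0% with DMSO.

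Along the chromosome 4 cluster the members alternate with related genes that were not selected. CXCL6, an ELR chemokine next to CXCL8, had no count in any A549 DMSO library and at most 2 with AMG900. H1792 held 135 ± 9.69 CPM of it under DMSO and 102 ± 2.16 CPM under AMG900 (SD, n = 3). With a floor of 3 counts over the A549 DMSO group, CXCL6 was at least 2130-fold higher in H1792. The log2 change with AMG900 in H1792 was -0.41 (SE 0.06, edgeR adjusted p = 3.3e-04), and -0.02 with the GC correction, not called. PF4V1, a platelet factor variant next to CXCL6, was also at 0 in all A549 libraries and rose in H1792 from 0.899 to 1.83 CPM (log2 1.04, SE 0.23, edgeR adjusted p = 0.0041). PF4 and PPBP, platelet chemokines between CXCL1 and CXCL5, had at most 19 counts in any library. The cluster therefore held high and near-zero genes side by side in both lines.

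**Figure D4:**
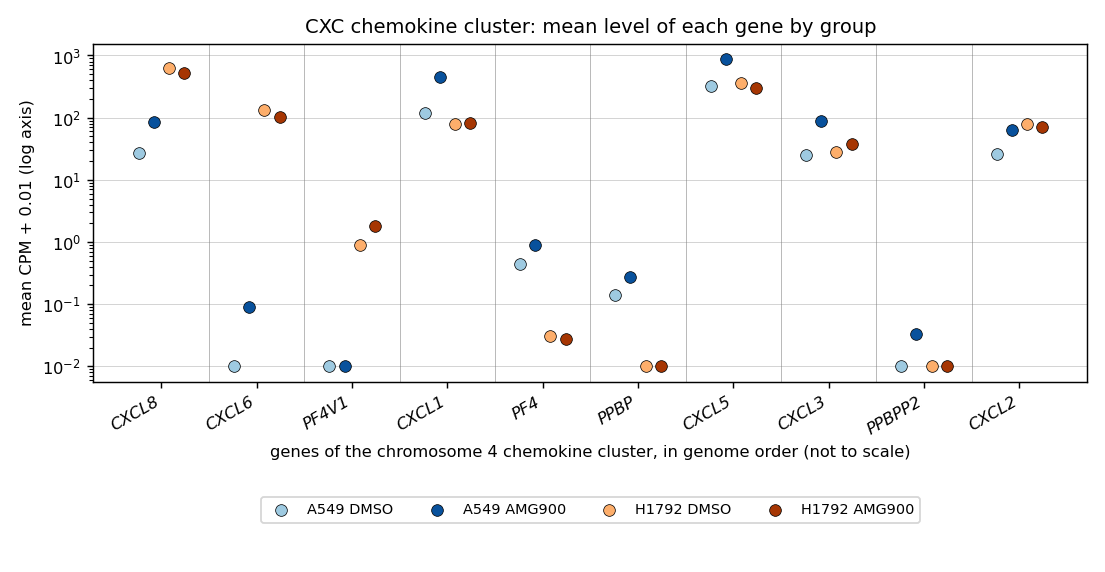
Mean CPM plus 0.01 (log axis) of the 10 genes of the chromosome 4 chemokine cluster in genome order, by group. CXCL8, CXCL1, CXCL5, CXCL3 and CXCL2 are counted in all 4 groups, CXCL6 is at 135 CPM in H1792 with DMSO and 0 in A549 with DMSO, and the lowest points at 0.01 are genes with no counts.

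Among 39 other chemokine genes, most were not counted enough to test. In A549, 2 were tested and CCL26, a ligand of CCR3 that draws eosinophils, was higher (log2 1.18, SE 0.26, edgeR adjusted p = 0.0020). Of all genes tested in A549, 17.2% were higher. In H1792, 12 were tested, of which 4 were higher and 1, CXCL6, lower, beside 16.2% and 18.8% of all genes. The higher count in H1792 ranged from 3 to 5 over left-out libraries. With the GC correction 5 were higher and none lower there. CX3CL1, a membrane-bound ligand like CXCL16, rose from 0.748 ± 0.204 to 3.87 ± 0.609 CPM (log2 2.35, SE 0.23, edgeR adjusted p = 2.5e-05). CCL26 (1.40, SE 0.11, edgeR adjusted p = 9.0e-06) and XCL1 (0.84, SE 0.14, edgeR adjusted p = 5.4e-04) rose with it. XCL1 had no count in A549 DMSO libraries and was at least 74.6-fold higher in H1792. The interferon-induced chemokines CXCL9, CXCL10 and CXCL11, which often appear with CCL5, had at most 14 counts in any library of either line, and none passed the filter on low counts.

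Of 23 chemokine receptors, 4 were counted enough to test in each line. The shares of all genes called higher and lower were 17.2% and 17.8% in A549 and 16.2% and 18.8% in H1792. None was called in A549, and CXCR4, the receptor of CXCL12, rose in H1792 from 11.2 ± 1.72 to 16.9 ± 0.301 CPM (log2 0.59, SE 0.11, edgeR adjusted p = 0.0014). CXCR1 and CXCR2, the receptors of the ELR ligands, had at most 5 counts in any library, and CXCR6, the receptor of CXCL16, at most 3.

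The NF-kB list held 16 subunit, inhibitor and feedback genes, of which 10 were higher and none lower in A549 with AMG900, beside 17.2% and 17.8% of all genes tested. TNFAIP3, which encodes the feedback inhibitor A20, had a log2 change of 1.41 (SE 0.08, edgeR adjusted p = 5.7e-09). RELB rose by 1.26 (SE 0.09, edgeR adjusted p = 4.7e-08), BIRC3 by 1.13 (SE 0.17, edgeR adjusted p = 7.9e-05) and NFKBIE by 1.11 (SE 0.11, edgeR adjusted p = 1.8e-06). The list's median log2 change was 0.97, beside -0.01 for all genes. In H1792, 3 of 16 were higher, a share near the 16.2% of all genes, and 1 was lower, against 18.8%, with a median of 0.10 beside 0.01. NFKB2 rose by 0.50 (SE 0.06, edgeR adjusted p = 1.3e-04), IKBKB by 0.30 (SE 0.07, edgeR adjusted p = 0.0044) and RELA by 0.24 (SE 0.06, edgeR adjusted p = 0.0079). NFKB1 had a log2 change of -0.53 (SE 0.06, edgeR adjusted p = 4.2e-05).

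The interaction was called for 10 of the 16 NF-kB genes, where 14.5% of all genes were, and in each of the 10 the log2 change was lower in H1792 than in A549. The largest was that of TNFAIP3, -1.51 (SE 0.10, edgeR adjusted p = 7.3e-10). The H1792 count of higher NF-kB genes was unstable: it was 1 without AMG900 replicate 1, 2 or 3 or without DMSO replicate 3, and 6 without DMSO replicate 1. The count of lower genes was 2 without DMSO replicate 1. With the GC correction 10 were higher and none lower in A549, while in H1792 3 were higher and 4 lower, and RELA (-0.05) and IKBKB (0.16, SE 0.06) were not called.

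**Figure D5:**
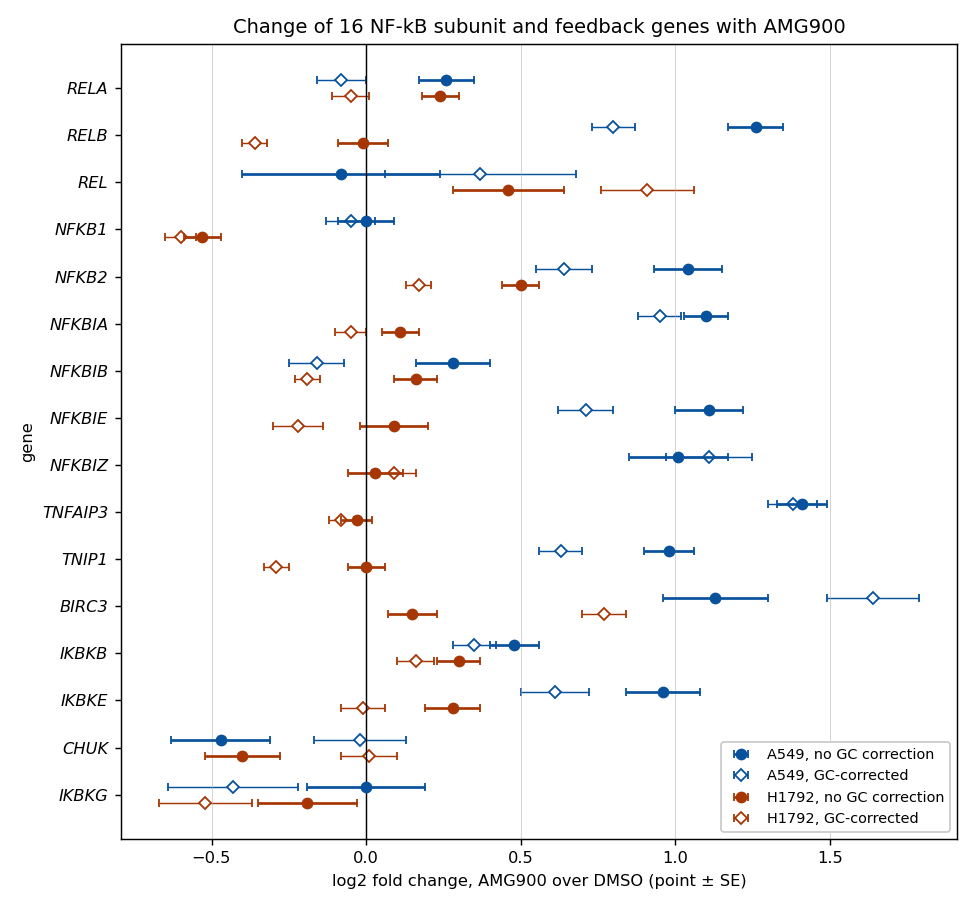
Log2 fold change of AMG900 over DMSO (point ± SE) of 16 NF-kB subunit and feedback genes in A549 (blue) and H1792 (red), as fitted (filled) and GC-corrected (open). TNFAIP3, RELB, BIRC3 and NFKBIE lie above 1 in A549 as fitted, where the fitted H1792 values lie near 0. GC-corrected, TNFAIP3 and BIRC3 stay above 1 in A549, while RELB (0.80) and NFKBIE (0.71) do not. In H1792 BIRC3 is then at 0.77, RELB at -0.36, NFKBIE at -0.22 and TNFAIP3 at -0.08.

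On the interferon side, 15 of 17 listed genes were tested in each line. In A549, 9 were higher and none lower, beside 17.2% and 17.8% of all genes, and the median log2 change was 0.77 beside -0.01. The largest changes were those of IRF7 at 2.19 (SE 0.20, edgeR adjusted p = 7.3e-07), MX1 at 1.94 (SE 0.29, edgeR adjusted p = 7.9e-05), ISG15 at 1.68 (SE 0.13, edgeR adjusted p = 1.6e-07) and IRF9 at 1.38 (SE 0.12, edgeR adjusted p = 4.1e-07). In H1792, 5 were higher and 2 lower, beside 16.2% and 18.8% of all genes, with a median of 0.28 beside 0.01. IRF9 (0.97, SE 0.10, edgeR adjusted p = 3.1e-05) and IRF7 (0.80, SE 0.09, edgeR adjusted p = 5.3e-05), both transcription factors of the interferon response, rose there too, as did IRF1 (0.56, SE 0.05, edgeR adjusted p = 1.7e-05). Among the lower genes was STAT2, a transcription factor of the same response (-0.35, SE 0.08, edgeR adjusted p = 0.0042). The count of lower genes in H1792 was 1 without AMG900 replicate 1, 2 or 3 or DMSO replicate 3. In A549 it was 1 without DMSO replicate 1. With the GC correction 11 were higher and none lower in A549, and 4 higher and 3 lower in H1792.

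AUUUA, the core of AU-rich elements, occurred 11 times in the 3′ UTR of CXCL5, 10 times in CXCL2, 9 in CXCL8, 7 in CXCL3 and 6 in CXCL1. CCL20 had 3, CCL2 and CXCL16 had 1 each and CCL5 had 0, beside a median of 2 over 18927 genes. The 5 ELR genes thus had the most AUUUA of the 9. These counts were not scaled to the length of the 3′ UTR, which was 1995 bases in CXCL5, 1252 in CXCL8 and 673 in CXCL3. It was 779 in CCL5 and 376 in CCL2. The part of AUUUA in the changes with AMG900 was not tested. Of 7 listed genes that bind or degrade mRNAs, 1 was higher and 3 lower in A549, where 17.2% and 17.8% of all genes were. The higher count is thus near the background. Whether each of the 7 acts through AUUUA was not examined. ZC3H12A, an RNase that degrades cytokine mRNAs, rose by 1.69 (SE 0.08, edgeR adjusted p = 8.9e-10) in A549 and by 0.60 (SE 0.06, edgeR adjusted p = 2.3e-05) in H1792. HNRNPD was at -0.98 (SE 0.13, edgeR adjusted p = 2.9e-05), KHSRP at -0.53 (SE 0.07, edgeR adjusted p = 5.2e-05) and ELAVL1 at -0.38 (SE 0.10, edgeR adjusted p = 0.0049) in A549.

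In H1792, 2 of these 7 were higher and 3 lower, beside 16.2% and 18.8% of all genes. ZFP36L2 was at -0.43 (SE 0.11, edgeR adjusted p = 0.0065), ZFP36, which encodes tristetraprolin, at 0.39 (SE 0.08, edgeR adjusted p = 0.0028), and ELAVL1 at -0.38 (SE 0.05, edgeR adjusted p = 1.8e-04). The higher count was 1 without AMG900 replicate 1 or 3 or DMSO replicate 3, and the lower count was 1 without AMG900 replicate 2 or 3. With the GC correction ZFP36 was at 0.13 (SE 0.09) and not called, so that 1 gene was higher in H1792. In A549 the higher count was 2 without DMSO replicate 1.

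Among 6 proteases that shed or trim chemokines, ADAM10, which sheds CXCL16 and CX3CL1, fell in both lines, by 0.64 in A549 (SE 0.12, edgeR adjusted p = 5.4e-04) and by 0.69 in H1792 (SE 0.14, edgeR adjusted p = 0.0018) on the log2 scale. Neither fall was called with the GC correction (-0.17 and -0.18). MMP2 rose in A549 (0.93, SE 0.09, edgeR adjusted p = 1.5e-06). MMP9 (2.53, SE 0.38, edgeR adjusted p = 3.4e-04) and MMP1 (2.35, SE 0.20, edgeR adjusted p = 1.2e-05) rose in H1792. MMP9 was barely counted there, with at most 6 counts per library with DMSO and at most 40 with AMG900. ADAM17 fell in H1792 by 0.43 (SE 0.08, edgeR adjusted p = 0.0016), which was -0.21 (SE 0.10) and not called with the GC correction. Of those tested, 1 was higher and 1 lower of 4 in A549, beside 17.2% and 17.8% of all genes, and 2 higher and 2 lower of 6 in H1792, beside 16.2% and 18.8%. With the GC correction none was lower in either line. The lower H1792 count was 1 without AMG900 replicate 1 or 3.

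The 9 genes differ in the GC content of their transcripts, from 32.9% in CXCL8 and 35.6% in CCL20 to 54.0% in CCL5 and 57.4% in CXCL16. Over the genes with a known value (12861 in A549 and 14480 in H1792), the log2 change with AMG900 had a Spearman rho with GC content of 0.499 in A549 and 0.479 in H1792, across genes that share libraries and are not independent. Whether this trend with GC content is technical or a response to AMG900 was not tested. In H1792 the corrected fit called 5 of the 9 higher and none lower, and in A549 7 higher and none lower.

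Genes with the pattern most like CCL5 over the 14 libraries were found as the Pearson correlation of log2 CPM after subtracting the DMSO mean of each line, among 14483 genes. They were PTGES (0.991), which encodes a prostaglandin E synthase, EXOC7 (0.991), TNFAIP2 (0.989), RAB13 (0.988) and TMEM9 (0.987). Of the other members CXCL3 was the closest to CCL5 (0.936) and CCL20 the farthest (0.416). The genes most like CXCL8 were GABARAPL1 (0.995), TRAK1 (0.994), FN1 (0.990), which encodes fibronectin, CTSC (0.987) and SERPINE2 (0.984), with correlations that share libraries and the line-specific AMG900 contrast with the members. For CXCL8 this pattern was a rise in A549 beside a slightly lower level in H1792, as in FN1 (0.88 and -0.21 in log2 change), and for CCL5 a rise in both, as in PTGES (1.13 and 0.65).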

How the data were processed

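RNA of A549 and H1792 cells was sequenced on a NextSeq 500 after treatment with DMSO or AMG900. The authors deposited a table of raw read counts per gene symbol for each line, one column per library, without normalization. Per the labels STAR and HTSeq were used with hg19/GRCh37, and versions and counting options are not given in the sources used here. The 28 rows of the H1792 table with calendar dates in place of symbols (at most 0.117% of counts) were left out. The labels speak of 3 replicates per treatment, while A549 has 4 libraries per treatment in them.

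Counts were fitted in R 4.3.3 with edgeR 4.0.16 (filterByExpr, TMM factors, quasi-likelihood test, Benjamini-Hochberg adjustment over all genes tested, FDR 0.01), each line by itself for AMG900 and all 14 libraries together for the interaction and the DMSO comparison. The study used DESeq2, here an alternative (1.42.0). The GC correction used a natural spline of transcript GC content with 5 degrees of freedom per library as an offset. The SE of a log2 change was derived from the quasi-likelihood test, as the absolute change divided by the square root of its F statistic. Log2 CPM values had a prior count of 2. A call is an adjusted p below the threshold. Depth limits genes with few counts, such as CCL20, most. The members, gene lists and rule for named genes (all members, up to 4 called genes with the largest change per list and line, and the 5 genes most correlated with CCL5 and CXCL8) were chosen with earlier results of these data known. CXCL6, CXCL9, CXCL10, CXCL11, CXCR1, CXCR2, CXCR6, PF4, PPBP and STAT2 were named beside that rule. A gene that the rule would name is not reported here. Sequences are from RefSeq. The fits were also run on simulated counts with a single dispersion, changes in well-counted genes only and no GC trend. These do not bear on genes with few counts or on calls that turn with the GC correction.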

Additional observations from a re-analysis of the deposited data

Results flagged for a closer look

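The change with AMG900 differed between the lines for 7 chemokines by the interaction test over all 14 libraries, each with the log2 change in H1792 minus that in A549. The values were -1.76 for CCL5, -1.88 for CXCL1, -1.48 for CXCL2, -1.34 for CXCL3, -1.66 for CXCL5, -1.85 for CXCL8 and -0.64 for CXCL16. The 7 genes were selected with the AMG900 contrasts known.

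In the A549 AMG900 group, the highest CXCL2 library, replicate 4 at 68.4 CPM, stood far from the other 3, which lay between 61.3 and 62.4 CPM. Chance flags about 1 in 20 groups in this way. CXCL2 was higher in every A549 AMG900 library than in every DMSO library with or without this library.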

How the results depend on the processing

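A member's log2 change was taken under alternatives 696 times. In 624 it kept its direction and side of the threshold, in 44 it lost the call, in 11 gained it and in 17 reversed. The alternatives include FDR 0.05 and a fold of at least 2, which change only the cutoff on the main fit, so no direction can reverse there. The A549 counts of members called higher and lower, the interaction count and the count higher in H1792 at rest stayed within 1.5 times under the alternatives run. In H1792 the count called higher was 5 with the GC correction and 1 at a fold of at least 2, since CCL2 and CXCL3 changed less than that. The H1792 count called lower was 2 with DESeq2, 2 with scaling by total counts, 2 with no filter on low counts, 2 at FDR 0.05, 0 with the GC correction and 0 at a fold of at least 2. Leaving out 1 library it ranged from 0 to 2. The count lower in H1792 at rest was 1 with no filter, 1 with at least 10 counts in every library, 1 with DMSO libraries only and 0 at a fold of at least 2, and 1 to 2 when leaving out 1 library. Causes not stated here were not tested.

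Reversed with the GC correction in H1792 were CCL20 (0.48), CXCL5 (0.30), CXCL8 (0.59) and CXCL16 (-0.21). With scaling by total counts CXCL1 (-0.0039) and CXCL16 (-0.0037) turned below 0 in H1792. Leaving out 1 library, the H1792 value of CXCL16 ranged from -0.03 (without DMSO replicate 1) to 0.11. The CCL2 interaction (-0.0049, SE 0.21) was 0.05 with DESeq2, 0.07 with DESeq2 size factors, 0.08 with scaling by total counts and 0.01 with no filter, and ranged from -0.14 to 0.14 over left-out libraries.

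No pairing by replicate number was seen: the correlation of same-numbered deviations ran from -0.062 to 0.042. A549 DMSO replicate 1 correlated best with AMG900 replicate 4 (0.109). With so few libraries per group a weak pairing could go unseen. With the replicate block CXCL5 was no longer called lower in H1792 (-0.24), CXCL8 was (-0.27), and the CXCL16 interaction was -0.66 and not called. The count of NF-kB genes higher in H1792 was 1 with the block. Of 384 alternative values of the gene list counts, some of which changed only the cutoff, 56 moved by over 1.5 times.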
